A study of Mus musculus with 18 samples.

Results

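The comparison described here is the step from naive to activated B cells in mice built to lack the histone methyltransferase G9a in B cells. Its members are 6 of the 18 libraries of the series, 3 of activated B cells and 3 of naive B cells, chosen by the cell type and genotype in their labels. In the knockout (KO) both alleles of Ehmt2, the gene for G9a, were flanked by loxP sites (G9afl/fl), and the mice were heterozygous for a Cre recombinase knocked into a B cell gene. Control mice (Ctrl) were heterozygous for the same Cre allele and carried no floxed Ehmt2 in their labelled genotype. Cre in B cells and the loss of 1 normal copy of the gene that carries it were thus shared by all groups. Activated B cells came from spleen 72 h after 50 µg lipopolysaccharide (LPS) in 100 µl was injected into the tail vein. They were sorted as B220+GL7+ cells that were also negative for the dead-cell dye Zombie yellow and for F4/80, Cd11b and Thy1.2. Naive B cells came from spleens of uninfected mice and were enriched as CD43- cells on magnetic beads, without a sort. LPS, cell type and isolation therefore changed together between the groups, and their parts in any difference cannot be told apart. RNA of 1000 cells was amplified for each library. The labels state neither the age of the mice nor whether replicates came from separate animals. The p-values thus measure the spread between these samples, which may be technical. Replicates are numbered as in the labels, activated KO 1, 3 and 4 and naive KO 1, 2 and 3, and per-library values are given in that order.

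G9a, with its partner GLP, methylates H3K9, and the dimethyl form is found at silent genes. A resting naive B cell is small, does not divide and recirculates between blood and follicles. LPS, sensed by Toll-like receptor 4, drives such cells to grow, divide and, in part, to become antibody-secreting plasma cells, for which the endoplasmic reticulum (ER) is enlarged under the transcription factor XBP1.

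Levels are RPKM (reads per kilobase of gene, relative to all mapped reads) scaled between libraries. They are thus relative levels of RNA, and neither total RNA per cell nor protein was measured. Differences are on the log2(RPKM + 1) scale, activated minus naive, which understates the change of genes near 1 RPKM. A gene was called higher or lower when its Benjamini-Hochberg adjusted p from limma was under 0.05, over 12703 genes tested. Depth was estimated at 10.7, 2.66 and 10.6 M reads in the activated KO libraries, against 3.79, 1.63 and 3.64 M reads in the naive KO libraries. Since 38.58% to 41.19% of the low values scored came out within 0.1 of a whole read in these 6 libraries, the estimates are rough and give no counting error for single genes. Activated KO replicates correlated with each other at 0.992 to 0.996 and naive KO replicates at 0.918 to 0.934. The median gene had an SD of 0.125 among activated KO libraries and of 0.388 among naive KO libraries (log2 scale, n = 3 each). Odorant receptor genes, which B cells are not known to use, had a median of 0.436 to 0.755 RPKM in activated KO libraries and of 1.68 to 4.99 RPKM in naive KO libraries. A low-level signal thus moved with the groups, and its part in the lower calls among weakly expressed genes was not tested.

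Markers of B cells were at high levels in every KO library, with 8 B cell genes summing to 2834 to 2996 RPKM in activated KO libraries and to 5272 to 5471 RPKM in naive KO libraries. Markers of other blood cells were mostly lower in the sorted activated cells. The 3 erythroid genes tested summed to 45.2 to 62.8 RPKM in activated KO libraries and to 309 to 637 RPKM in naive KO libraries. The 7 platelet genes summed to 1.70 to 3.09 RPKM in activated KO and to 57.3 to 91.5 RPKM in naive KO libraries. The 12 monocyte and macrophage genes summed to 35.7 to 66.2 RPKM in activated KO and to 107 to 173 RPKM in naive KO libraries, with C1qc, a complement chain of macrophages, listed at 0 in 2 of the 3 activated KO libraries. The 5 T cell genes summed to 89.1 to 116 RPKM in activated KO and to 267 to 270 RPKM in naive KO libraries. Most of this was Cd2, at 102, 76.6 and 96.4 RPKM in activated KO and 243, 246 and 236 RPKM in naive KO libraries. Mouse B cells also express Cd2, so this sum cannot be read as RNA of T cells. Cd3e averaged 0.345 RPKM in activated KO cells against 0.773 RPKM in naive KO cells. The sums of 3 NK cell genes were 3.06 to 5.76 RPKM in activated KO and 5.06 to 12.2 RPKM in naive KO libraries. Those of 2 neutrophil genes were 0.0613 to 1.70 RPKM in activated KO and 8.17 to 28.7 RPKM in naive KO libraries. For 9 dendritic cell genes the sums overlapped, at 104 to 112 RPKM in activated KO and 105 to 115 RPKM in naive KO libraries. The part of these cells in the lower calls of their own genes was not tested. In bulk samples fewer cells of a type and less RNA per cell cannot be told apart. Among the genes of the sort, Adgre1, which encodes F4/80, averaged 0.556 RPKM in activated KO cells against 6.28 RPKM in naive KO cells. Itgam, which encodes Cd11b, went the other way, with 14.4, 14 and 11.1 RPKM in activated KO libraries, against 2.06, 3.17 and 0.833 RPKM in naive KO libraries (log2 change 2.3, SE 0.304, adjusted p = 3.18e-05), although the sort removed cells with Cd11b on their surface. These groups did not overlap.

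**Figure D1:**
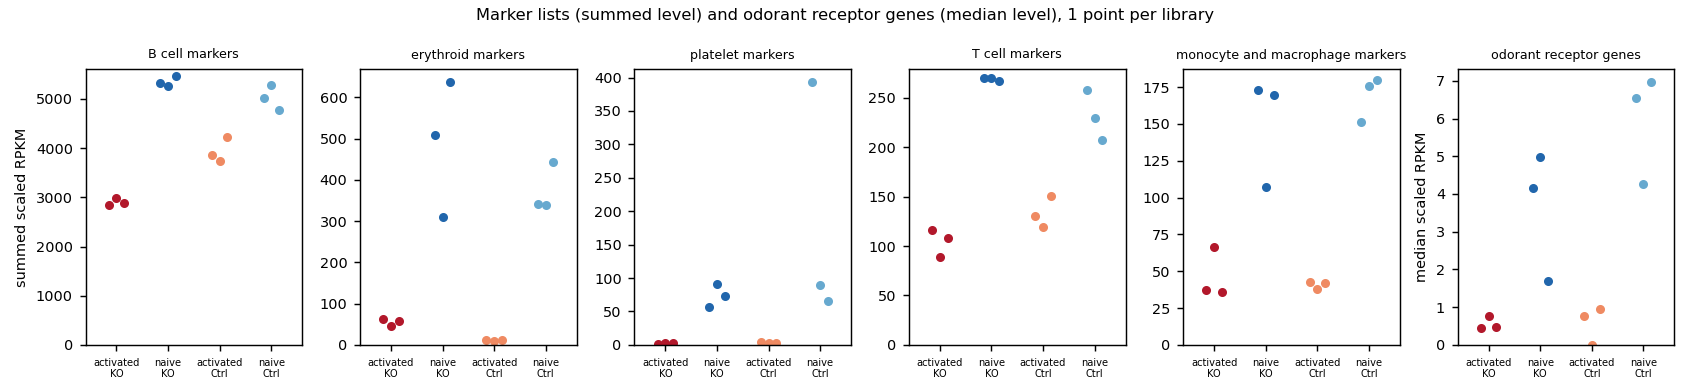
Summed scaled RPKM of marker lists, and median scaled RPKM of 57 odorant receptor genes, with 1 point per library for activated KO, naive KO, activated Ctrl and naive Ctrl cells. In KO, erythroid markers sum to 45.2 to 62.8 RPKM in activated and 309 to 637 RPKM in naive libraries, and every naive library lies above every activated library in odorant receptor signal.

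Ehmt2 itself, at chr17:34898469-34914052 of GRCm38, had 23.1, 22.3 and 21.4 RPKM in activated KO libraries, against 13.8, 23.1 and 13.8 RPKM in naive KO libraries. The groups overlapped through naive KO replicate 2, and the gene was not called (log2 change 0.42, SE 0.248, adjusted p = 0.176), although it was called without that library (log2 change 0.65, adjusted p = 0.046). Its levels in Ctrl were 21.4, 19.3 and 25.5 RPKM in activated Ctrl libraries, against 27.4, 16.5 and 13.7 RPKM in naive Ctrl libraries. These are values over the whole gene, so they do not measure the deleted part and do not check the knockout.

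The step was broad. Of 12703 genes, 2323 were called higher (18.3%) and 3560 lower (28.0%) in activated than in naive KO cells, 46.3% in all, and 1316 and 2181 of these changed at least 2-fold. The groups did not overlap for 58.4% of genes, 2834 of them higher and 4584 lower in activated KO cells. The median change over all genes was -0.26, and under quantile normalization it was -0.06. Of the calls, 39.49% were higher here, 41.46% with RPKM as deposited, 50.31% under quantile normalization and 52.7% with a filter of at least 5 RPKM. Of the 3560 lower genes, 1646 had a naive KO mean of at least 10 RPKM, while 1974 of the 2323 higher genes reached 10 RPKM in activated KO cells.

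Genes of cell division made up most of the largest increases. The gene with the largest increase was Zbtb32, a zinc finger repressor of the BTB family, with 348, 379.6 and 328 RPKM in activated KO libraries, against 0.135, 6.07 and 2.1 RPKM in naive KO libraries (log2 change 6.92, SE 0.516, adjusted p = 1.38e-07). It was thus low in all 3 naive KO libraries and high in all 3 activated KO libraries. The next 11 by size, among genes reaching 10 RPKM with groups that did not overlap, were Ccna2, Plk1, Ube2c, Ccnb2, Cks1b, Bub1b, Rrm2, Ccnb1, Cdc20, Aurkb and Kif11, with log2 changes of 4.92 to 6.77. All serve the cell division cycle.

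Among the 12 largest decreases by the same rule, Hba-a2 (0.152 against 187 RPKM, activated then naive KO) and the platelet chemokine Pf4 (0.146 against 30.7 RPKM) are markers of red cells and platelets, whose sums are given above. The others were Nr4a1, Hspa1b, Hspa1a, Rgs1, Plk2, Pglyrp1, Ccl5, Apoe, Icosl and Tsc22d3, with log2 changes of -6.12 to -4.53. Rgs1, a brake on chemokine receptor signalling, had 0.581, 0.562 and 0.546 RPKM in activated KO libraries, against 87.1, 53 and 49.7 RPKM in naive KO libraries (log2 change -5.32, SE 0.451, adjusted p = 4.81e-07). Icosl, the ligand of the T cell costimulator ICOS, had 3.09, 1.5 and 2.5 RPKM in activated KO libraries, against 80.9, 77.5 and 72 RPKM in naive KO libraries (log2 change -4.56, SE 0.218, adjusted p = 1.9e-09). Neither gene reached 5 RPKM in any activated KO library.

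In the mitosis list, 36 of 37 tested genes were called higher and 1 lower, with a median log2 change of 4.22. Over all genes 18.3% were called higher and 28.0% lower, with a median of -0.26. Ccna2, cyclin A2 of S phase and mitosis, had 196, 240.3 and 194 RPKM in activated KO libraries, against 0.268, 0.423 and 2.97 RPKM in naive KO libraries (log2 change 6.77, SE 0.426, adjusted p = 2.37e-08). Plk1, a kinase of mitotic entry and spindle assembly, had 118, 138 and 129 RPKM in activated KO libraries, against 0, 1.0 and 1.43 RPKM in naive KO libraries (log2 change 6.25, SE 0.336, adjusted p = 5.34e-09). Its naive replicate 1 was listed at 0, and the other naive libraries did not exceed 1.43 RPKM. Ube2c, which charges ubiquitin for the anaphase-promoting complex, had 247, 330.3 and 286 RPKM in activated KO libraries, against 1.32, 9.38 and 1.37 RPKM in naive KO libraries (log2 change 6.22, SE 0.48, adjusted p = 1.97e-07). Mki67, a coat of mitotic chromosomes and the usual mark of cycling cells, had 50, 46.5 and 51.4 RPKM in activated KO libraries, against 4.54, 2.13 and 2.69 RPKM in naive KO libraries (log2 change 3.65, SE 0.226, adjusted p = 2.09e-08). In each of these genes the groups were far apart, and the lowest activated library exceeded the highest naive library. Cyclin B1, Ccnb1, averaged 194 ± 55.5 RPKM in activated KO cells and 3.66 ± 1.15 RPKM in naive KO cells (SD, n = 3 each), with activated replicate 3 the highest. The member that fell was Pttg1, the securin that blocks separation of sister chromatids until anaphase, with 10.8, 6.97 and 11.1 RPKM in activated KO libraries, against 31.4, 25.1 and 27.9 RPKM in naive KO libraries (log2 change -1.47, SE 0.21, adjusted p = 6.43e-05). Its groups did not overlap either, and all 3 naive libraries were the higher ones.

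DNA replication genes followed the same direction: 45 of 48 tested were called higher and 1 lower (18.3% and 28.0% over all genes). The median log2 change was 2.23. Cdc6, which loads the replicative helicase, had 28.6, 29.9 and 27 RPKM in activated KO libraries, against 0, 0.466 and 0.154 RPKM in naive KO libraries (log2 change 4.63, SE 0.249, adjusted p = 5.34e-09), and was listed at 0 in naive replicate 1. Mcm5, a subunit of that helicase, had 209, 226 and 191 RPKM in activated KO libraries, against 19.6, 23.1 and 29.5 RPKM in naive KO libraries (log2 change 3.08, SE 0.171, adjusted p = 6.97e-09). The other MCM2-7 subunits had log2 changes of 2.61 (Mcm7) to 3.53 (Mcm3). Rrm2, the small subunit of ribonucleotide reductase, had 353, 385 and 368 RPKM in activated KO libraries, against 4.61, 21.6 and 4.55 RPKM in naive KO libraries (log2 change 5.38, SE 0.426, adjusted p = 2.49e-07). Naive replicate 2 was the highest naive library, yet it stayed far under all 3 activated ones. Pcna, the sliding clamp, was already well expressed in naive cells, with 259, 282 and 249 RPKM in activated KO libraries, against 83.4, 76.6 and 81.2 RPKM in naive KO libraries (log2 change 1.7, SE 0.0941, adjusted p = 6.97e-09). Cdt1, the partner of Cdc6 in helicase loading, was the exception and fell, with 15.2, 13.6 and 12.1 RPKM in activated KO libraries, against 20, 24.9 and 25.8 RPKM in naive KO libraries (log2 change -0.75, SE 0.204, adjusted p = 0.00859). Pold1, the catalytic subunit of polymerase delta, averaged 78 RPKM in activated KO cells against 74.2 RPKM in naive KO cells and was not called (adjusted p = 0.616).

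At the G1 entry point, 13 of 20 tested genes were called higher and 2 lower (18.3% and 28.0% over all genes). The median log2 change was 1.1. Cyclin E1, Ccne1, had 71.1, 67.3 and 77.2 RPKM in activated KO libraries, against 12.5, 8.22 and 1.87 RPKM in naive KO libraries (log2 change 3.36, SE 0.479, adjusted p = 6.53e-05). The D cyclins split: Ccnd2 averaged 40.5 ± 2.13 RPKM in activated KO cells and 13 ± 3.21 RPKM in naive KO cells (log2 change 1.6, SE 0.187, adjusted p = 1.05e-05) and Ccnd3 41.5 ± 6.16 RPKM in activated KO cells and 16.7 ± 2.83 RPKM in naive KO cells (log2 change 1.27, SE 0.205, adjusted p = 0.0002). Ccnd1 fell to 0.129 RPKM in activated KO cells against 4.13 RPKM in naive KO cells (log2 change -2.0). Its naive level lay within the odorant receptor medians of naive KO libraries, 1.68 to 4.99 RPKM. E2f1, an activator of S phase genes, had 18.8, 17.7 and 12.8 RPKM in activated KO libraries, against 4.22, 1.15 and 2.19 RPKM in naive KO libraries (log2 change 2.38, SE 0.31, adjusted p = 2.73e-05). Its repressive relative E2f8 changed more, at 23 against 0.772 RPKM on average in activated and naive KO cells (log2 change 3.83). The CDK inhibitor p27, Cdkn1b, fell, with 4.62, 3.65 and 4.88 RPKM in activated KO libraries, against 14.1, 11.4 and 13.1 RPKM in naive KO libraries (log2 change -1.37, SE 0.236, adjusted p = 0.000345). The inhibitor p18, Cdkn2c, rose (17.9 against 5.61 RPKM, log2 change 1.55). In these called genes every activated library lay on the stated side of every naive one.

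The promoters of the mitosis genes are shown because the letters TTTGAA, the core of the cell cycle genes homology region through which such genes are known to be silenced in resting cells, can be looked up in them. RefSeq windows of 300 bases, 250 before and 50 after the transcription start (GRCm38.p6), were found for 31 of 37 genes of the list. TTTGAA on either strand stood in 22 of them (71.0%), against 15.4% of the 10162 tested genes with a window and 20.2% of all 27025 genes with one. The list was made of mitosis genes, a class known for these letters, so this share is no independent evidence. The 22 genes with a match were all called higher (median log2 change 3.92), and of the 9 without one, 8 were called higher and 1 lower (median 4.30), so the larger median inside this list was that of genes without the letters. The shorter CCAAT, which does not overlap TTTGAA, stood in 23 of 31 windows (74.2%), against 43.5% of tested genes. The E2F letters TTTCCCGC and TTTGGCGC stood in 0 mitosis windows and in 7 (17.5%) and 6 (15%) of 40 windows of the DNA replication list, against 2.3% and 1.1% of tested genes. A match is only a run of letters and not a shown binding site. The 250 bases before the start are printed for the 3 genes with the largest change that held TTTGAA there in their window, with the match in capitals (TTCAAA where it is on the other strand). They are Ube2c at chr2:164769679-164769928 on the plus strand, Ccnb2 at chr9:70421555-70421804 on the minus strand and Cdc20, the activator of the anaphase-promoting complex, at chr4:118437344-118437593 on the minus strand.
Ube2c: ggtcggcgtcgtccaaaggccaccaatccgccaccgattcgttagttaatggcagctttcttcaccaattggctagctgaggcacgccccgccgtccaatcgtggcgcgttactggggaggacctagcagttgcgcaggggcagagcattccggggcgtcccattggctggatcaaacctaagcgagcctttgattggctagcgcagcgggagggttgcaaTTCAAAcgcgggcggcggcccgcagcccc
Ccnb2: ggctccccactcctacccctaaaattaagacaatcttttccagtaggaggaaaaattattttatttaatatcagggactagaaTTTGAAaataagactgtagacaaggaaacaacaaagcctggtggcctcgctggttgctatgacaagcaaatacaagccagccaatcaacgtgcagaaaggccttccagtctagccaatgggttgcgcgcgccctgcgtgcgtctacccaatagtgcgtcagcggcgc
Cdc20: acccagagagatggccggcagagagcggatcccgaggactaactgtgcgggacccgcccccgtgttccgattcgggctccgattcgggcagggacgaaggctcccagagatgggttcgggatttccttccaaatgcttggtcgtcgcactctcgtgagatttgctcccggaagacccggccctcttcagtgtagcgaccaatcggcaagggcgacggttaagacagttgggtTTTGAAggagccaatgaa
The match ended close to the start in Cdc20, beginning 18 bases before it, and began 29 bases before it in Ube2c and 167 bases before it in Ccnb2. Cdc20 had 108, 124 and 116 RPKM in activated KO libraries, against 1.3, 0.662 and 5.51 RPKM in naive KO libraries (log2 change 5.32, SE 0.374, adjusted p = 7.94e-08). Ccnb2, cyclin B2, had 149.7, 152 and 156 RPKM in activated KO libraries, against 2.77, 2.71 and 0 RPKM in naive KO libraries (log2 change 6.0, SE 0.755, adjusted p = 2.03e-05). Both were low in all naive libraries, and Ccnb2 was listed at 0 in naive replicate 3.

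Genes that hold lymphocytes at rest went down together. In the quiescence list, 0 of 16 tested genes were called higher and 15 lower (18.3% and 28.0% over all genes). The median log2 change was -1.58. Btg1, an antiproliferative factor, had 41.2, 35.8 and 40.8 RPKM in activated KO libraries, against 266, 293 and 314 RPKM in naive KO libraries (log2 change -2.86, SE 0.117, adjusted p = 4.36e-10). Klf2, the transcription factor that keeps lymphocytes quiescent and recirculating, had 106, 87.7 and 110.0 RPKM in activated KO libraries, against 589, 786 and 706 RPKM in naive KO libraries (log2 change -2.76, SE 0.154, adjusted p = 6.98e-09). Tsc22d3, the glucocorticoid-induced leucine zipper protein, had 9.48, 9.78 and 8.9 RPKM in activated KO libraries, against 253, 244 and 220.4 RPKM in naive KO libraries (log2 change -4.53, SE 0.165, adjusted p = 2.4e-10). Every naive library was several-fold above every activated one for these 3 genes. Txnip, a brake on glucose uptake, averaged 50.2 ± 6.35 RPKM in activated KO cells and 149 ± 12.7 RPKM in naive KO cells (log2 change -1.55, SE 0.132, adjusted p = 4.76e-07). Pik3ip1, an inhibitor of PI3 kinase, averaged 6.15 ± 1.18 RPKM in activated KO cells and 27.9 ± 5.43 RPKM in naive KO cells (log2 change -2.01, SE 0.207, adjusted p = 3.05e-06). Foxo3 was low in both groups (0.215 against 1.15 RPKM, activated then naive) and was not called.

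**Figure D2:**
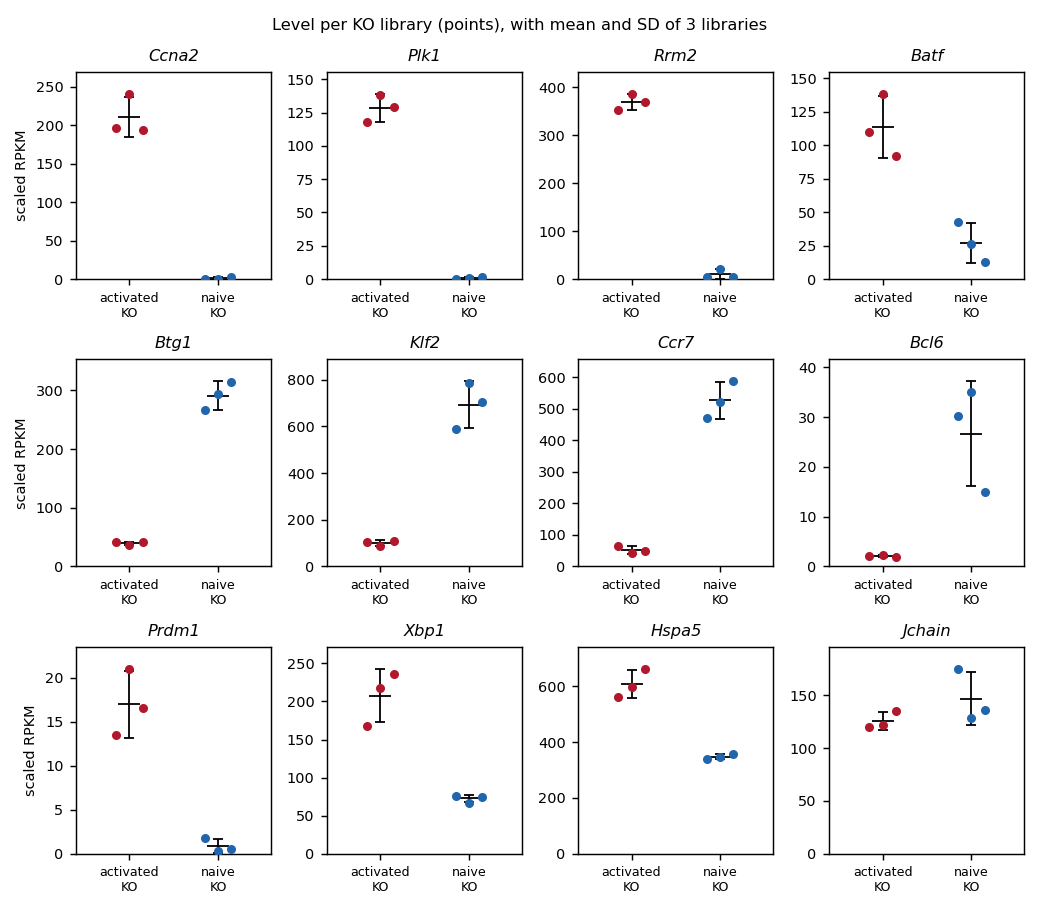
Scaled RPKM in each of the 3 activated KO libraries (left) and 3 naive KO libraries (right) for 12 genes, with mean and SD (n = 3). Points of the groups are apart in every panel except that of Jchain, where activated libraries lie at 120 to 135 RPKM and naive libraries at 128 to 175 RPKM.

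Messages for making protein and for metabolism rose, while more ribosomal protein genes fell than rose. In ribosome biogenesis, 28 of 40 tested genes were called higher and 0 lower (18.3% and 28.0% over all genes). The median log2 change was 0.93. Nucleolin, Ncl, had 134, 112 and 132 RPKM in activated KO libraries, against 51.2, 45.3 and 59.9 RPKM in naive KO libraries (log2 change 1.26, SE 0.147, adjusted p = 9.86e-06). Polr1b, a subunit of RNA polymerase I, had 26.7, 30.9 and 24.5 RPKM in activated KO libraries, against 9.74, 12.7 and 5.68 RPKM in naive KO libraries (log2 change 1.51, SE 0.298, adjusted p = 0.00101). Among aminoacyl-tRNA synthetases, 16 of 20 tested genes were called higher and 0 lower, with a median log2 change of 1.36. Iars, the isoleucyl-tRNA synthetase, had 63.5, 82 and 62 RPKM in activated KO libraries, against 27.2, 17.2 and 22.1 RPKM in naive KO libraries (log2 change 1.61, SE 0.203, adjusted p = 2.03e-05). Of the cytosolic ribosomal proteins, by contrast, 8 of 57 tested genes were called higher and 29 lower, with a median log2 change of -0.29. Rplp0 rose to 836, 878 and 838 RPKM in activated KO libraries, against 619, 501 and 609 RPKM in naive KO libraries (log2 change 0.57, SE 0.091, adjusted p = 0.000185). Rps27 averaged 420.5 against 1691 RPKM in the same order (log2 change -2.0). Ribosomal protein genes have many processed copies in the genome, and how reads were split among them is not given in the sources used here. Myc, a driver of growth, was lower in the activated cells at 72 h, with 38, 32.6 and 40.6 RPKM in activated KO libraries, against 95.2, 72.9 and 67.9 RPKM in naive KO libraries (log2 change -1.06, SE 0.142, adjusted p = 3.82e-05), and its groups did not overlap. In the Myc network, 1 of 10 tested genes were called higher and 6 lower, with a median log2 change of -0.90, the riser being Mxd3 (23.1 against 2.54 RPKM, log2 change 2.92), a relative of Myc's antagonists that is known in dividing cells.

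In glycolysis, 14 of 24 tested genes were called higher and 2 lower (18.3% and 28.0% over all genes). The median log2 change was 0.78. Ldha, which makes lactate, had 846, 1306 and 771 RPKM in activated KO libraries, against 199.9, 191 and 235 RPKM in naive KO libraries (log2 change 2.19, SE 0.169, adjusted p = 1.99e-07). Gapdh had 809.5, 1087 and 776 RPKM in activated KO libraries, against 257, 223 and 277 RPKM in naive KO libraries (log2 change 1.8, SE 0.129, adjusted p = 9.31e-08). Activated replicate 3, the shallowest activated library, was the highest for both, and the groups stayed apart without it. The glucose transporter Slc2a1 averaged 29.8 RPKM in activated KO cells against 26.7 RPKM in naive KO cells and was not called (adjusted p = 0.558), nor was Hk2, hexokinase 2 (3.8 against 2.34 RPKM, adjusted p = 0.151). In the respiratory chain, 34 of 60 tested genes were called higher and 4 lower, with a median log2 change of 0.45, and the lower calls numbered 0 to 2 without activated KO replicate 1 or 3 or naive KO replicate 3. Cycs, cytochrome c, had 61.4, 81.2 and 63.8 RPKM in activated KO libraries, against 25.6, 21.2 and 32.9 RPKM in naive KO libraries (log2 change 1.35, SE 0.183, adjusted p = 4.05e-05). The amino acid transporters were mixed: 4 of 14 tested genes were called higher and 1 lower, with a median log2 change of 0.29. Of these transporters 35.71% were called, under the 46.3% over all genes, so the counts do not set the list apart. Slc7a5, the light chain of the large neutral amino acid transporter, had 57.2, 65.4 and 46.1 RPKM in activated KO libraries, against 6.08, 8.54 and 10.9 RPKM in naive KO libraries (log2 change 2.61, SE 0.251, adjusted p = 1.57e-06). Its partner Slc3a2 averaged 47.7 RPKM in activated KO cells against 59.4 RPKM in naive KO cells and was not called (adjusted p = 0.0526).

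Cholesterol synthesis was among the most uniform lists: 22 of 24 tested genes were called higher and 0 lower (18.3% and 28.0% over all genes). The median log2 change was 1.58. Sqle, squalene epoxidase, had 75.2, 75.5 and 71.3 RPKM in activated KO libraries, against 9.15, 3.47 and 19.8 RPKM in naive KO libraries (log2 change 2.94, SE 0.489, adjusted p = 0.000255). Hmgcs1, an early enzyme of the pathway, had 44.5, 46.6 and 39.5 RPKM in activated KO libraries, against 14.2, 9.27 and 11 RPKM in naive KO libraries (log2 change 1.85, SE 0.201, adjusted p = 4.94e-06). Fdps, the synthase of farnesyl diphosphate, had 128, 99.7 and 108 RPKM in activated KO libraries, against 23.7, 17.5 and 25.4 RPKM in naive KO libraries (log2 change 2.29, SE 0.22, adjusted p = 1.57e-06). In these 3 genes no naive library reached an activated one. Proteasome genes also rose, as 30 of 37 tested genes were called higher and 3 lower, with a median log2 change of 0.92. Among the immunoproteasome subunits, Psmb8 averaged 493 ± 47.4 RPKM in activated KO cells and 403 ± 28.4 RPKM in naive KO cells (log2 change 0.29, SE 0.0929, adjusted p = 0.0216), a call that was lost without activated KO replicate 3, without naive KO replicate 2 and with library weights (highest adjusted p over all alternatives 0.118). Psmb9 was not called (259.5 against 272 RPKM). Psmb10 was called lower although its groups overlapped (67.4 against 119.5 RPKM, log2 change -0.78).

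**Figure D3:**
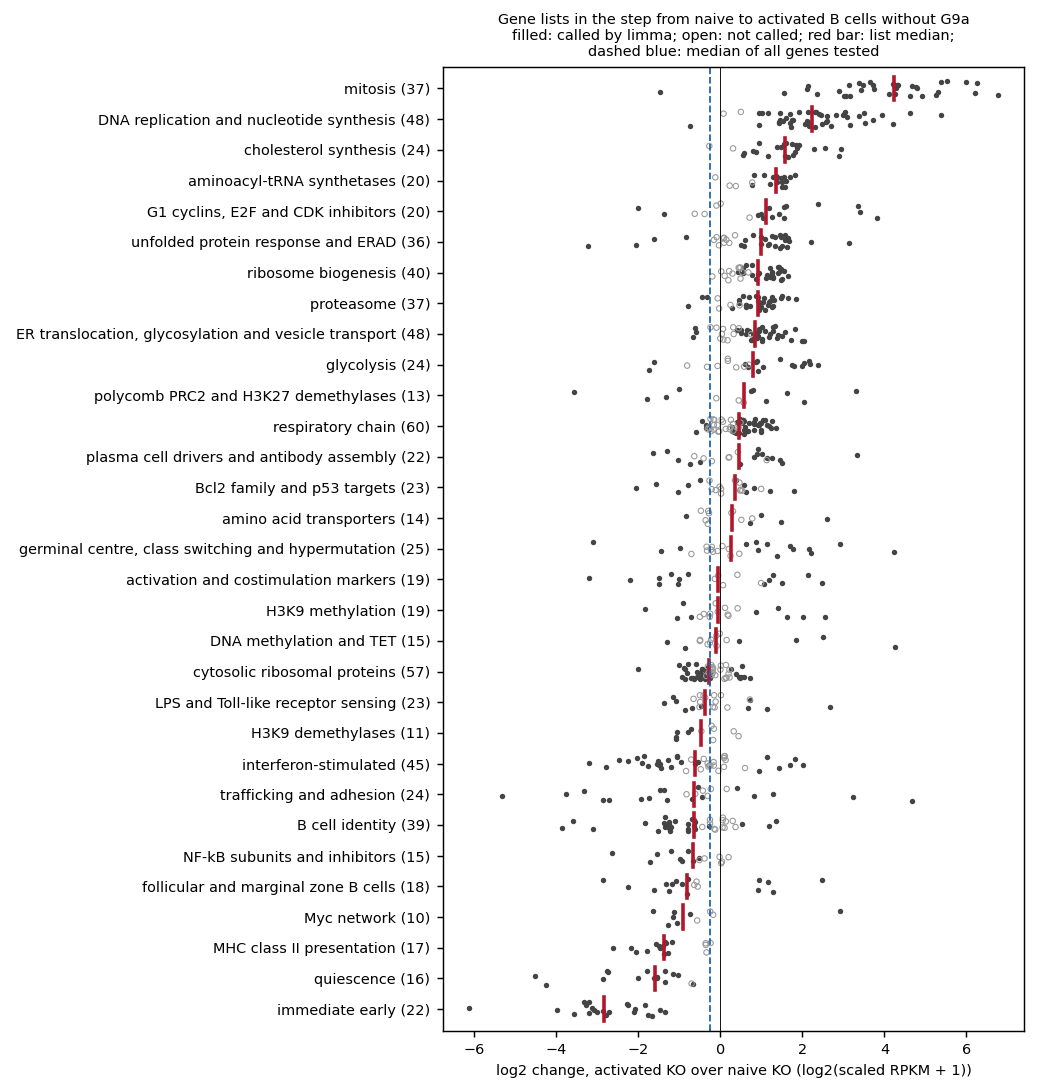
Log2 change in the KO genotype, activated over naive, for every tested member of 31 gene lists (number tested in brackets), with the list median as a red bar and the median over all genes (-0.26) as a dashed line. Mitosis has the highest median (4.22) and immediate early genes the lowest (-2.83).

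Messages of the secretory machinery of the ER were raised without a rise in the message of the joining chain of antibodies. In the unfolded protein response and ER-associated degradation list, 23 of 36 tested genes were called higher and 4 lower (18.3% and 28.0% over all genes). The median log2 change was 0.98. Xbp1 had 168, 218 and 236 RPKM in activated KO libraries, against 76.1, 66.7 and 75 RPKM in naive KO libraries (log2 change 1.49, SE 0.175, adjusted p = 1.03e-05). Hspa5, the ER chaperone BiP, had 564, 599 and 663 RPKM in activated KO libraries, against 339, 346 and 358 RPKM in naive KO libraries (log2 change 0.80, SE 0.0964, adjusted p = 1.32e-05). Derl3, a channel component of ER-associated degradation, had 45.3, 44.5 and 55.8 RPKM in activated KO libraries, against 3.93, 2.43 and 9.22 RPKM in naive KO libraries (log2 change 3.15, SE 0.45, adjusted p = 6.67e-05). All 3 were higher in every activated library than in any naive one. The members that fell were Ddit3, Atf4, Eif2ak3 and Dnajb9. Ddit3, the stress factor CHOP, had 13.7, 7.8 and 11.9 RPKM in activated KO libraries, against 103, 110.1 and 118 RPKM in naive KO libraries (log2 change -3.23, SE 0.179, adjusted p = 6.98e-09). Atf4, its activator, had 76.2, 63.9 and 72.2 RPKM in activated KO libraries, against 249, 182 and 230.3 RPKM in naive KO libraries (log2 change -1.62, SE 0.121, adjusted p = 1.46e-07). Dnajb9, a co-chaperone of BiP, had 14, 14.8 and 19.9 RPKM in activated KO libraries, against 68.1, 75.3 and 66.2 RPKM in naive KO libraries (log2 change -2.06, SE 0.155, adjusted p = 1.54e-07). Ern1, which splices Xbp1 mRNA, was low, at 1.46, 1.42 and 1.25 RPKM in activated KO libraries and 0.21, 4.85 and 1.64 RPKM in naive KO libraries, with overlapping groups (adjusted p = 0.83). For ER translocation, glycosylation and vesicle transport, 34 of 48 tested genes were called higher and 3 lower, with a median log2 change of 0.84. Sec61a1, the pore for nascent chains, had 108, 131 and 112 RPKM in activated KO libraries, against 46.5, 30.5 and 40.6 RPKM in naive KO libraries (log2 change 1.57, SE 0.175, adjusted p = 6.45e-06). Sec24d, a coat protein of vesicles leaving the ER, had 16.9, 13.4 and 18.9 RPKM in activated KO libraries, against 4.85, 3.73 and 1.95 RPKM in naive KO libraries (log2 change 1.99, SE 0.277, adjusted p = 5.2e-05).

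Promoters of this list were read for the ER stress element, CCAAT and CCACG with 9 bases between them, a spacing that was added after other letters had been looked up. It stood on either strand in 10 of 32 windows (31.2%), against 0.2% of tested genes and 0.1% of all genes with a window. The list was made of genes of the ER stress response, so this share is no independent evidence. CCACG alone stood in 28 of 32 (87.5%), against 50.2% of tested genes, and CCAAT alone in 84.4%, against 43.5%. TGACGTGG, which holds CCACG on its other strand, stood in 2 of 32 (6.2%), against 1.1%. Of the 10 genes with the full element 8 were called higher and 0 lower (median log2 change 1.52), and of the 22 without it 12 were called higher and 4 lower (median 0.53). The 250 bases before the start are printed for the 3 genes with the element there and the largest change, for Hspa5 and, as a gene that fell, for Dnajb9, with CCAAT and CCACG in capitals (CGTGG and ATTGG on the other strand). They are Derl3 at chr10:75893148-75893397, Creld2 at chr15:88819396-88819645 and Hspa5 at chr2:34771840-34772089 on the plus strand, and Canx at chr11:50325674-50325923 and Dnajb9 at chr12:44210069-44210318 on the minus strand.
Derl3: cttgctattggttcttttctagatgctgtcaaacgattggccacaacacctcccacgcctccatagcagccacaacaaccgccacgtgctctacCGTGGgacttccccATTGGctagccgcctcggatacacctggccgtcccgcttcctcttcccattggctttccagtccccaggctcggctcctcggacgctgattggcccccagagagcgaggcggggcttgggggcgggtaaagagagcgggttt
Creld2: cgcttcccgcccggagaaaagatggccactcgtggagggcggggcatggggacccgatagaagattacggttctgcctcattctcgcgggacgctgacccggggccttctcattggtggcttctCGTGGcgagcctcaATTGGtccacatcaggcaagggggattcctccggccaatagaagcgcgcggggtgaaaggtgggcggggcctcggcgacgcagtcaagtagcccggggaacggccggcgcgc
Canx: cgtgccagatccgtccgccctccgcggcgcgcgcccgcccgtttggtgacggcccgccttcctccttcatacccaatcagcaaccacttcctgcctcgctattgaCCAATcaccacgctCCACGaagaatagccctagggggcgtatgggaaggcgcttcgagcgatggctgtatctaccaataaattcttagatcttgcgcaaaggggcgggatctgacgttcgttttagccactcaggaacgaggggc
Hspa5: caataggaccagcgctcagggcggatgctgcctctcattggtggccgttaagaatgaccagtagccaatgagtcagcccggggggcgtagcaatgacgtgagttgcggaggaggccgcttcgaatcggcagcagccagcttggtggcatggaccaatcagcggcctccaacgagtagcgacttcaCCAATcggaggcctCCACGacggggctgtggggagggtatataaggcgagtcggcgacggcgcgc
Dnajb9: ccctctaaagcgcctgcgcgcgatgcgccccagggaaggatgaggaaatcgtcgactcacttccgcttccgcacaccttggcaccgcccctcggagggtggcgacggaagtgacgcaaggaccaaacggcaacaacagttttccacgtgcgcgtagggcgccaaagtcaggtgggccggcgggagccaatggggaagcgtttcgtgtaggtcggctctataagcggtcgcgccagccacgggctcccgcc
The element began 156 bases before the start in Derl3, 126 in Creld2, 145 in Canx and 65 in Hspa5, and these letters were not found in the window of Dnajb9. Creld2, a secreted protein induced by ER stress, had 122, 169 and 169.9 RPKM in activated KO libraries, against 43.3, 52.8 and 45.1 RPKM in naive KO libraries (log2 change 1.67, SE 0.18, adjusted p = 4.57e-06). Canx, the lectin chaperone calnexin, had 192, 278 and 217 RPKM in activated KO libraries, against 61.1, 70.2 and 83.4 RPKM in naive KO libraries (log2 change 1.66, SE 0.149, adjusted p = 8.63e-07). In both the activated libraries were all higher.

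Among plasma cell drivers and antibody assembly genes, 10 of 22 tested genes were called higher and 5 lower (18.3% and 28.0% over all genes). The median log2 change was 0.45. The 5 lower calls were between 2 and 3 when any activated KO library or any activated Ctrl library was left out. Prdm1, the repressor Blimp-1 that commits B cells to plasma cells, had 13.4, 21 and 16.6 RPKM in activated KO libraries, against 1.75, 0.311 and 0.5 RPKM in naive KO libraries (log2 change 3.34, SE 0.367, adjusted p = 5.61e-06). Mzb1, an ER chaperone of antibody assembly, had 559.9, 653 and 649 RPKM in activated KO libraries, against 333, 286 and 365 RPKM in naive KO libraries (log2 change 0.92, SE 0.117, adjusted p = 2.23e-05). Irf4 fell, with 31.6, 48.5 and 42.7 RPKM in activated KO libraries, against 60.1, 66.3 and 79.8 RPKM in naive KO libraries (log2 change -0.74, SE 0.196, adjusted p = 0.0069). The joining chain gene Jchain, whose product links IgM and IgA units into polymers, was at 120.2, 121 and 135 RPKM in activated KO libraries, against 175, 128 and 136 RPKM in naive KO libraries. Its groups overlapped and it was not called (log2 change -0.21, SE 0.135, adjusted p = 0.214), though under quantile normalization it was called lower (log2 change -0.39, adjusted p = 0.0337). Sdc1, which encodes the plasma cell marker CD138, was under 1 RPKM in every activated library, with 0.451, 0.63 and 0.638 RPKM in activated KO libraries, against 5.02, 2.27 and 4.98 RPKM in naive KO libraries (log2 change -1.64, SE 0.327, adjusted p = 0.00105; adjusted p = 0.0842 under quantile normalization). Tnfrsf17, the receptor BCMA, averaged 0.542 RPKM in activated KO cells against 3.71 RPKM in naive KO cells, with overlapping groups (adjusted p = 0.0478). Both Sdc1 and Tnfrsf17 lay near the odorant receptor medians of 0.436 to 0.755 RPKM in activated KO and 1.68 to 4.99 RPKM in naive KO libraries. The part of that low-level signal in their falls was not tested. Immunoglobulin constant region genes were not analysed here.

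B cell identity genes fell in number. In that list, 3 of 39 tested genes were called higher and 24 lower (18.3% and 28.0% over all genes). The median log2 change was -0.66. Pax5, the factor that maintains B cell identity, had 15.9, 7.4 and 13.1 RPKM in activated KO libraries, against 28.7, 25.6 and 40.6 RPKM in naive KO libraries (log2 change -1.35, SE 0.308, adjusted p = 0.00284). Bach2, a repressor of Prdm1, had 4.83, 4.29 and 3.29 RPKM in activated KO libraries, against 17.1, 15.8 and 19.4 RPKM in naive KO libraries (log2 change -1.85, SE 0.216, adjusted p = 1e-05). Cd79a, a signalling chain of the B cell receptor, had 866, 1040.0 and 909 RPKM in activated KO libraries, against 2162, 2158 and 2180.0 RPKM in naive KO libraries (log2 change -1.21, SE 0.083, adjusted p = 5.81e-08). The groups did not overlap for any of them. Also called lower were Ebf1 (11.4 against 25.6 RPKM), Cd79b (709 against 1749 RPKM), the IgM receptor Fcmr (61.4 against 884 RPKM, log2 change -3.87) and the complement regulator Cd55 (14.8 against 192 RPKM, log2 change -3.61), with activated values first. Members that rose, 3 here and 5 without naive KO replicate 3 or naive Ctrl replicate 1, were Cd24a (608 against 268 RPKM), Tnfrsf13b, the receptor TACI (279 against 109.9 RPKM), and Ikzf3 (52 against 35.6 RPKM). Irf8 averaged 116 RPKM in activated KO cells against 113 RPKM in naive KO cells with overlapping groups (adjusted p = 0.74), and Ms4a1, which encodes CD20, was not called (403 against 327 RPKM). 

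Germinal centre genes did not move as a block: 11 of 25 tested genes were called higher and 3 lower, with a median log2 change of 0.25. Batf, a factor needed for class switching, had 110.0, 138 and 92.2 RPKM in activated KO libraries, against 42.3, 26.4 and 12.7 RPKM in naive KO libraries (log2 change 2.16, SE 0.304, adjusted p = 5.85e-05). Bcl6, the master repressor of germinal centre cells, had 2.03, 2.29 and 1.8 RPKM in activated KO libraries, against 30.2, 35 and 14.9 RPKM in naive KO libraries (log2 change -3.11, SE 0.296, adjusted p = 1.44e-06). The activated group was entirely above the naive group for Batf and entirely below it for Bcl6. Cmah, whose loss exposes the GL7 epitope used in the sort, had 9.34, 8.92 and 10.3 RPKM in activated KO libraries, against 17.6, 19.1 and 23.6 RPKM in naive KO libraries (log2 change -1.0, SE 0.206, adjusted p = 0.00141). Among activation and costimulation markers, 6 of 19 tested genes were called higher and 8 lower, with a median log2 change of -0.05, with 2 higher among genes of at least 5 RPKM. Beside both lists, 18.3% of all genes were called higher and 28.0% lower. Cd86 had 35.9, 46.5 and 38.3 RPKM in activated KO libraries, against 21.8, 5.63 and 19.1 RPKM in naive KO libraries (log2 change 1.5, SE 0.333, adjusted p = 0.00231), with naive replicate 2 the lowest. Cd69, an early activation antigen, was lower in the activated cells, with 39.2, 40.6 and 36.7 RPKM in activated KO libraries, against 345, 388 and 372 RPKM in naive KO libraries (log2 change -3.21, SE 0.122, adjusted p = 2.95e-10). Il10, which encodes an inhibitory cytokine, had 17.3, 13.4 and 18.6 RPKM in activated KO libraries, against 0.963, 8.66 and 0.6 RPKM in naive KO libraries (log2 change 2.47, SE 0.524, adjusted p = 0.00167). Naive replicate 2 was the highest naive library for Il10 and still lay under the activated ones. Cd44 (22.3 against 16.8 RPKM, adjusted p = 0.0837) and Fas (7.15 against 8.55 RPKM, adjusted p = 0.935) were not called and their groups overlapped.

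Immediate early genes were the list with the lowest median: 0 of 22 tested genes were called higher and 22 lower, with a median log2 change of -2.83, and the groups did not overlap for any of the 22, as they did not for 58.4% of all genes. Nr4a1, an orphan nuclear receptor induced by antigen receptor signals, had 2.86, 2.31 and 3.16 RPKM in activated KO libraries, against 284, 195 and 321 RPKM in naive KO libraries (log2 change -6.12, SE 0.208, adjusted p = 1.18e-10). Dusp1, a MAP kinase phosphatase, had 23.9, 18.8 and 22.6 RPKM in activated KO libraries, against 236, 181 and 249 RPKM in naive KO libraries (log2 change -3.29, SE 0.184, adjusted p = 7.25e-09). Fos, part of AP-1, had 64.8, 71.9 and 64.1 RPKM in activated KO libraries, against 315, 279 and 262 RPKM in naive KO libraries (log2 change -2.07, SE 0.197, adjusted p = 1.42e-06). Egr1 had 24.7, 22.1 and 18.9 RPKM in activated KO libraries, against 69, 65.1 and 54.9 RPKM in naive KO libraries (log2 change -1.48, SE 0.321, adjusted p = 0.00196). All naive libraries were above all activated ones. Hspa1a and Hspa1b, nearly identical genes of the inducible heat shock protein HSP70 between which reads may be split, averaged 3.14 against 221 RPKM and 6.51 against 391 RPKM (log2 changes -6.07 and -6.1). These genes are known to respond within minutes to handling, and bead enrichment of naive and sorting of activated cells cannot be told apart from activation here.

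Within the Toll-like receptor list, 4 of 23 tested genes were called higher and 6 lower, with a median log2 change of -0.37. These shares are near the 18.3% higher and 28.0% lower over all genes. Tlr4 had 3.88, 4.9 and 4.29 RPKM in activated KO libraries and 8.47, 6.11 and 5.52 RPKM in naive KO libraries, and although the groups did not overlap the gene was not called (log2 change -0.51, SE 0.243, adjusted p = 0.0975). Myd88, the common adaptor, had 58.9, 57.1 and 58.5 RPKM in activated KO libraries, against 49.6, 26.3 and 35.6 RPKM in naive KO libraries (log2 change 0.68, SE 0.195, adjusted p = 0.0114), with naive replicate 2 the lowest library. Ticam2, the adaptor that links TLR4 to interferon induction, averaged 18.5 RPKM in activated KO cells against 3.01 RPKM in naive KO cells (log2 change 2.67). Cd180, a TLR4 homologue, had 12.8, 9.75 and 12 RPKM in activated KO libraries, against 36.1, 13.8 and 32.8 RPKM in naive KO libraries (log2 change -1.09, SE 0.273, adjusted p = 0.00508). For NF-kB subunits and inhibitors, 0 of 15 tested genes were called higher and 9 lower, with a median log2 change of -0.68. Rel, the subunit c-Rel, had 18.6, 18.4 and 19.6 RPKM in activated KO libraries, against 68.8, 66.1 and 57.1 RPKM in naive KO libraries (log2 change -1.71, SE 0.158, adjusted p = 1.08e-06), with groups wide apart. Nfkbia, an inhibitor that NF-kB itself induces, had 235, 212 and 212 RPKM in activated KO libraries, against 357, 289.6 and 300.5 RPKM in naive KO libraries (log2 change -0.52, SE 0.111, adjusted p = 0.00185).

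Homing and adhesion genes moved in both directions, most of them down. In the trafficking list, 5 of 24 tested genes were called higher and 13 lower (18.3% and 28.0% over all genes). The median log2 change was -0.65. Ccr7, which guides lymphocytes to T cell zones, had 66.2, 42.4 and 47.5 RPKM in activated KO libraries, against 472, 522 and 587 RPKM in naive KO libraries (log2 change -3.34, SE 0.172, adjusted p = 3.99e-09). S1pr1, the receptor for exit into blood, had 21.9, 18.3 and 25.7 RPKM in activated KO libraries, against 168, 161 and 163 RPKM in naive KO libraries (log2 change -2.86, SE 0.15, adjusted p = 4.56e-09). Cxcr4 had 3.17, 9.54 and 3.73 RPKM in activated KO libraries, against 55.6, 127 and 70.1 RPKM in naive KO libraries (log2 change -3.76, SE 0.357, adjusted p = 1.4e-06). Those 3 were lower in every activated library, whereas Cxcr3, a receptor of inflammatory chemokines, was listed at 0 in 2 naive libraries: 56.8, 56.5 and 53.9 RPKM in activated KO libraries, against 0, 0 and 9.89 RPKM in naive KO libraries (log2 change 4.68, SE 0.676, adjusted p = 7.41e-05). The integrin chain Itgb1 was at 139, 124 and 152 RPKM in activated KO libraries, against 11.6, 17.4 and 13.2 RPKM in naive KO libraries (log2 change 3.22, SE 0.171, adjusted p = 5.04e-09). Another chain, Itgb7, was at 17.2, 20.5 and 22 RPKM in activated KO libraries, against 144, 115 and 152 RPKM in naive KO libraries (log2 change -2.72, SE 0.186, adjusted p = 5.81e-08). Their groups did not overlap, with Itgb1 higher and Itgb7 lower in activated cells. Cxcr5, the receptor for B cell follicles, fell less (86.7 against 141 RPKM, log2 change -0.69). Of follicular and marginal zone genes, 5 of 18 tested genes were called higher and 10 lower, with a median log2 change of -0.81. Fcer2a, the follicular marker CD23, had 141, 111 and 116 RPKM in activated KO libraries, against 385, 323 and 426 RPKM in naive KO libraries (log2 change -1.61, SE 0.149, adjusted p = 1.1e-06). Cr2, the marker CD21, had 45.5, 54.3 and 51.2 RPKM in activated KO libraries, against 129, 121 and 111 RPKM in naive KO libraries (log2 change -1.24, SE 0.149, adjusted p = 1.33e-05). Both markers were thus lower, while Cd36, a scavenger receptor of marginal zone cells, rose (164 against 29.4 RPKM, log2 change 2.49).

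Genes of antigen presentation by MHC class II fell: 0 of 17 tested were called higher and 13 lower (18.3% and 28.0% over all genes). The median log2 change was -1.37. H2-Aa had 772, 861 and 762 RPKM in activated KO libraries, against 2146, 2140.0 and 2310.0 RPKM in naive KO libraries (log2 change -1.46, SE 0.0824, adjusted p = 7.83e-09). Cd74, the invariant chain, had 2774, 3977 and 2714 RPKM in activated KO libraries, against 8840.0, 10040.0 and 8909 RPKM in naive KO libraries (log2 change -1.57, SE 0.131, adjusted p = 4.06e-07). Ciita, the master regulator of the class, had 30.9, 28.8 and 26.7 RPKM in activated KO libraries, against 72.2, 68.5 and 71.4 RPKM in naive KO libraries (log2 change -1.27, SE 0.163, adjusted p = 2.39e-05). Every activated library was under every naive one for these 3, with activated replicate 3 the highest activated library for Cd74. The 4 members not called were Lgmn and the RFX subunits Rfx5, Rfxank and Rfxap.

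More interferon-stimulated genes fell than rose: 6 of 45 tested genes were called higher and 22 lower, with a median log2 change of -0.61. Over all genes 18.3% were called higher and 28.0% lower, so risers were no more frequent in this list than among all genes. Irf7, the regulator of type I interferon, had 2.71, 4.09 and 3.7 RPKM in activated KO libraries, against 43.7, 37.1 and 40.5 RPKM in naive KO libraries (log2 change -3.21, SE 0.207, adjusted p = 2.94e-08). Ifit3, an antiviral effector, had 0.983, 0.895 and 0.523 RPKM in activated KO libraries, against 4.4, 20.9 and 7.18 RPKM in naive KO libraries (log2 change -2.47, SE 0.429, adjusted p = 0.000368). Both were lower in all activated libraries. Isg15 went the other way, with 42.1, 36.4 and 33.9 RPKM in activated KO libraries, against 12, 3.15 and 29.7 RPKM in naive KO libraries (log2 change 1.7, SE 0.501, adjusted p = 0.0134), with naive replicate 3 the highest naive library. The guanylate-binding proteins Gbp2 (42.1 against 10.2 RPKM) and Gbp3 (113 against 31.9 RPKM) also rose, with log2 changes of 2.02 and 1.81. In the Bcl2 family and p53 target list, 6 of 23 tested genes were called higher and 5 lower, with a median log2 change of 0.36, and the number higher was 3 without activated KO replicate 1 and 2 without activated KO replicate 4. The share called, 47.83%, was near the 46.3% over all genes, so these counts do not set the list apart. Bcl2 had 15.3, 13.8 and 15.2 RPKM in activated KO libraries and 14.6, 17.8 and 11.8 RPKM in naive KO libraries, with overlapping groups (adjusted p = 0.949). Bcl2l1, which encodes the survival factor Bcl-xL, averaged 5.42 ± 0.828 RPKM in activated KO cells and 2.78 ± 1.15 RPKM in naive KO cells (log2 change 0.81, SE 0.293, adjusted p = 0.036), and this call was lost without any 1 of the 6 activated libraries, without naive KO replicate 3, with library weights and with the 6 KO libraries alone (highest adjusted p over all alternatives 0.123). Bid (126 against 54.7 RPKM) and Ccng1 (102 against 29.9 RPKM) rose, and Pmaip1, the death factor Noxa, fell (13.7 against 59.5 RPKM, log2 change -2.06).

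Chromatin genes moved in both directions. In the H3K9 methylation list, 5 of 19 tested genes were called higher and 4 lower, with a median log2 change of -0.06, beside 18.3% higher and 28.0% lower over all genes. The list median was 0.19 under quantile normalization, and lower calls were 2 when any KO library other than naive replicate 3 was left out. Ehmt1, the partner of G9a, had 13.8, 14.5 and 14.6 RPKM in activated KO libraries and 23.6, 16 and 18.8 RPKM in naive KO libraries and was not called (adjusted p = 0.19), although its groups did not overlap. Suv39h1, which trimethylates lysine 9 in heterochromatin, had 44.8, 42.6 and 42.8 RPKM in activated KO libraries, against 9.12, 13.1 and 8.52 RPKM in naive KO libraries (log2 change 2.0, SE 0.187, adjusted p = 1.21e-06). Cbx5, the heterochromatin protein HP1 alpha that binds methylated lysine 9, had 20.3, 25.4 and 22.7 RPKM in activated KO libraries, against 3.44, 7.02 and 0.872 RPKM in naive KO libraries (log2 change 2.55, SE 0.403, adjusted p = 0.00016). Both were higher in every activated library. Setdb1 averaged 16.2 RPKM in activated KO cells against 14.2 RPKM in naive KO cells (adjusted p = 0.481). For H3K9 demethylases, 0 of 11 tested genes were called higher and 5 lower, with a median log2 change of -0.47, the 5 being Kdm3a, Kdm3b, Jmjd1c, Kdm4b and Kdm7a (3 lower without activated KO replicate 1). In the DNA methylation and TET list, 4 of 15 tested genes were called higher and 2 lower, with a median log2 change of -0.10. The share called was 45.45% of the demethylases and 40% of the DNA methylation list, no more than the 46.3% over all genes. Dnmt1, the maintenance methyltransferase, had 68, 57.7 and 61.8 RPKM in activated KO libraries, against 6.92, 14.3 and 10.4 RPKM in naive KO libraries (log2 change 2.51, SE 0.235, adjusted p = 1.24e-06). Uhrf1, which recruits it to replicated DNA, had 176, 192 and 159 RPKM in activated KO libraries, against 6.42, 11 and 7.62 RPKM in naive KO libraries (log2 change 4.26, SE 0.167, adjusted p = 2.95e-10). The activated values were all far above the naive ones, whereas Dnmt3b (3.52 against 3.42 RPKM) and Tet2 (3.53 against 5.59 RPKM) were not called. Of polycomb genes, 6 of 13 tested genes were called higher and 4 lower (76.92% called), with a median log2 change of 0.57. Ezh2, the H3K27 methyltransferase of dividing cells, had 61, 65.2 and 72.9 RPKM in activated KO libraries, against 4.72, 7.71 and 5.32 RPKM in naive KO libraries (log2 change 3.3, SE 0.178, adjusted p = 5.34e-09). Its relative Ezh1 had 6.69, 7.57 and 5.84 RPKM in activated KO libraries, against 10.2, 15.2 and 19.5 RPKM in naive KO libraries (log2 change -1.01, SE 0.238, adjusted p = 0.00329). The pair thus moved in opposite directions. Phf1, an accessory subunit, had 1.13, 1.46 and 1.31 RPKM in activated KO libraries, against 26.7, 26.7 and 25 RPKM in naive KO libraries (log2 change -3.56, SE 0.222, adjusted p = 2.11e-08).

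The same step in Ctrl cells gave 2062 genes higher (16.2%) and 4431 lower (34.9%). Of the KO calls, 4388 were called in the same direction in Ctrl, which is 74.59% of the KO calls and 67.58% of the Ctrl calls, with 1633 higher and 2755 lower in both. A further 1481 genes were called in KO and not in Ctrl, 2091 in Ctrl and not in KO, and 14 were called in opposite directions. Being called in 1 genotype alone does not show a difference, so the difference of the steps was tested for every gene. By limma it was called for 24 genes, 8 with a higher step (0.063%) and 16 with a lower step (0.126%) in KO than in Ctrl, while 1493 genes had an unadjusted p under 0.05. Those numbers moved with single libraries: 169 higher and 81 lower were called without naive KO replicate 2, and 0 or 1 higher and 3 to 5 lower without any 1 of the 6 activated libraries. They were also 16 and 25 without naive Ctrl replicate 1, 33 and 36 without naive Ctrl replicate 2, 5 and 9 without naive KO replicate 1, and for higher steps 15 without naive KO replicate 3. Of the 24 genes, 3 to 5 were still called without any 1 activated library, 10 to 24 without any 1 naive library, 3 with library weights and 8 after quantile normalization. The signs of all 24 differences held wherever they were tested.

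**Figure D4:**
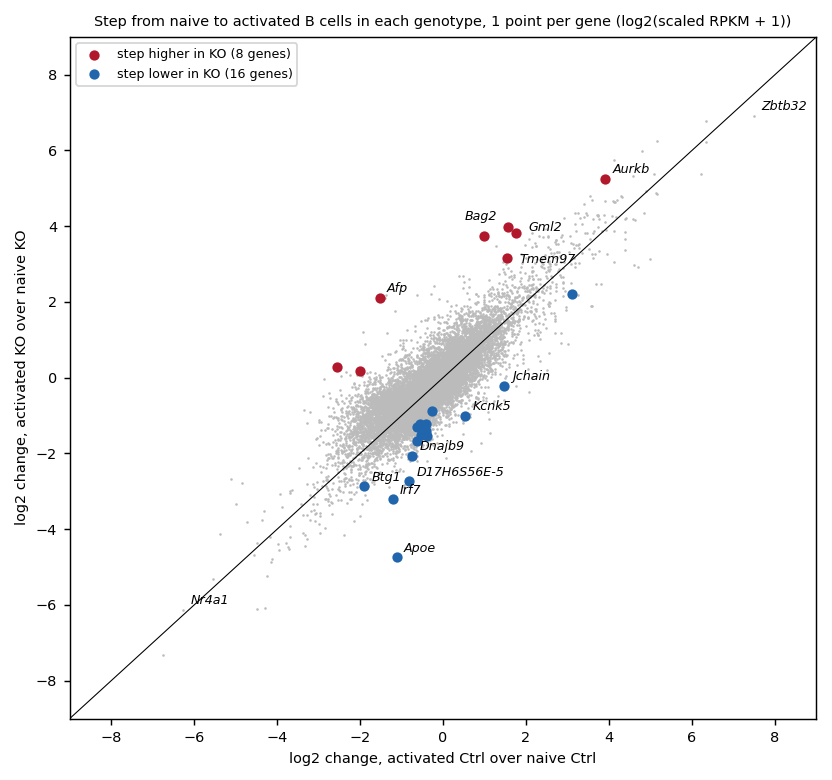
Log2 change of the step in KO (activated over naive, vertical) against that in Ctrl (horizontal), 1 point per tested gene, with the line of equal change and the 24 genes whose difference was called in colour. Zbtb32 and Nr4a1 lie far out in both genotypes, and Apoe, Jchain and D17H6S56E-5 lie below the line.

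Markers that moved with genotype stand beside these results. B cell markers summed to 2834 to 2996 RPKM in activated KO and to 3742 to 4220 RPKM in activated Ctrl libraries, and plasma cell markers, mostly Jchain, to 148 to 167 RPKM and to 323 to 415 RPKM. Erythroid markers summed to 45.2 to 62.8 RPKM in activated KO and to 10.1 to 12.8 RPKM in activated Ctrl libraries, through Hbb-bs and Hbb-b2, while Hba-a2 was under 1 RPKM in all 6. The part of these shifts in the differences was not tested.

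Genes of antibody secretion were among those with a lower step in KO. Jchain was at 120.2, 121 and 135 RPKM in activated KO against 175, 128 and 136 RPKM in naive KO libraries, and at 271, 359 and 347 RPKM in activated Ctrl libraries, against 114, 109.7 and 122 RPKM in naive Ctrl libraries. All 3 activated Ctrl libraries were thus above all others, and the difference of the steps was -1.69 (SE 0.191, adjusted p = 0.00139). It was called under every alternative, as was that of D17H6S56E-5. Dnajb9 fell to 14, 14.8 and 19.9 RPKM in activated KO against 68.1, 75.3 and 66.2 RPKM in naive KO libraries, and to 30.9, 30.9 and 32.6 RPKM in activated Ctrl libraries, against 49.9, 49 and 61.7 RPKM in naive Ctrl libraries, a difference of -1.31 (SE 0.219, adjusted p = 0.0398). The Dnajb9 difference was lost when any 1 of 6 libraries was left out and under 3 other settings (limma adjusted p up to 0.143). Sdf2l1, an ER chaperone cofactor outside the naming rule and chosen after its values were seen, rose in both genotypes, to 235 RPKM in activated KO against 49.7 RPKM in naive KO cells and 303 RPKM in activated Ctrl cells against 34.3 RPKM in naive Ctrl cells (difference -0.89, SE 0.157, adjusted p = 0.0425). Other genes of the program had lower KO steps without a called difference: Xbp1 stood at 398, 396 and 413 RPKM in activated Ctrl libraries, against 70.3, 74.6 and 43.7 RPKM in naive Ctrl libraries (difference -1.21, SE 0.247, adjusted p = 0.0595), Hspa5 had a difference of -0.51 (SE 0.136, adjusted p = 0.129) and Mzb1 one of -0.67 (SE 0.166, adjusted p = 0.104). Over the unfolded protein response list the median difference was -0.55, with 0 higher and 2 lower calls among 36 genes (0.063% and 0.126% over all genes), and over all genes the median was 0.09. Prdm1 had a step of 3.34 in KO and 3.77 in Ctrl (difference -0.43, SE 0.519, adjusted p = 0.788). Not every such gene had a clearly lower step. The difference was -0.09 (SE 0.248) for Sec61a1, -0.003 (SE 0.277) for Irf4 and 0.37 (SE 0.462) for Sdc1. For ER translocation, glycosylation and vesicle transport the median difference was -0.25, with 0 calls among 48 genes.

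Further genes with lower steps in KO included B cell surface receptors and genes of innate responses. Cd79a was at 866, 1040.0 and 909 RPKM in activated KO against 2162, 2158 and 2180.0 RPKM in naive KO libraries and at 1309, 1337 and 1485 RPKM in activated Ctrl libraries, against 2061, 2066 and 1908 RPKM in naive Ctrl libraries, a difference of -0.66 (SE 0.117, adjusted p = 0.0425). Cd79b had a difference of -0.68 (SE 0.126, adjusted p = 0.0472) and Cd72, an inhibitory coreceptor, one of -1.16 (SE 0.191, adjusted p = 0.0398). Activated KO libraries were below activated Ctrl libraries in all 3 genes, while naive libraries of the genotypes lay close together. The Cd79a difference was lost when any 1 of 8 libraries was left out (limma adjusted p up to 0.308). That of Cd72 was lost without any 1 of 7 libraries (up to 0.189). Irf7 was at 2.71, 4.09 and 3.7 RPKM in activated KO against 43.7, 37.1 and 40.5 RPKM in naive KO libraries, and at 12.9, 19.1 and 18.3 RPKM in activated Ctrl libraries, against 33.7, 37.9 and 49 RPKM in naive Ctrl libraries (difference -2.0, SE 0.292, adjusted p = 0.0222). This difference was lost when any 1 of 4 libraries was left out and with library weights (limma adjusted p up to 0.138). Apoe, a lipid carrier that macrophages also make in quantity, had 2.76, 2.55 and 2.03 RPKM in activated KO libraries, against 92.8, 71.1 and 113 RPKM in naive KO libraries, and in Ctrl 23.8, 59.2 and 59.7 RPKM in activated Ctrl libraries, against 107, 98.5 and 85.4 RPKM in naive Ctrl libraries. Its difference, -3.62 (SE 0.401, adjusted p = 0.00139), was the lowest of the 24 and was lost only with library weights (adjusted p = 0.0818). D17H6S56E-5, a transcript on the same chromosome as Ehmt2, had 17.1, 15.9 and 17.1 RPKM in activated KO libraries, against 122, 123 and 105 RPKM in naive KO libraries, and in Ctrl 56.4, 61.6 and 65.4 RPKM in activated Ctrl libraries, against 98.8, 126 and 101 RPKM in naive Ctrl libraries (difference -1.92, SE 0.185, adjusted p = 0.000567). It lies at chr17:34996678-35000774 and Ehmt2 at chr17:34898469-34914052. Btg1 (-0.96, adjusted p = 0.0409), the adhesion receptor Adgre5, or CD97 (-1.03, adjusted p = 0.0423), and the potassium channel Kcnk5 (-1.54, adjusted p = 0.0346) completed the list of genes named by rule, and Ftl1, Cyp4f18, Ifi27l2a and Apobec3 fell outside it. The differences of Btg1, Adgre5 and Kcnk5 were lost without any 1 of 8, 9 and 6 libraries, respectively.

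Higher steps in KO were of different kinds. Those named by rule were lost without any 1 of several libraries, from 6 for Bag2 and Tmem97 to 10 for Odf1. They were also lost under other settings (limma adjusted p up to 0.286, for Gml2). Afp, alpha-fetoprotein, which is normally made by fetal liver, had 17.7, 16.3 and 18.3 RPKM in activated KO libraries, against 3.01, 2.0 and 5.38 RPKM in naive KO libraries, and in Ctrl 1.48, 0.863 and 1.58 RPKM in activated Ctrl libraries, against 10.5, 1.71 and 8.18 RPKM in naive Ctrl libraries (difference 3.64, SE 0.631, adjusted p = 0.0418). Its step was called higher in KO and lower in Ctrl. Gml2, a gene of the Ly6 family region, was nearly silent in naive cells of both genotypes and had 12.6, 16.3 and 13.4 RPKM in activated KO libraries, against 0, 0 and 0.17 RPKM in naive KO libraries, and in Ctrl 2.19, 2.82 and 2.69 RPKM in activated Ctrl libraries, against 0, 0 and 0.166 RPKM in naive Ctrl libraries (difference 2.08, SE 0.352, adjusted p = 0.0398). Bag2, a co-chaperone of HSP70, had 16.7, 19.1 and 13.3 RPKM in activated KO libraries, against 0.277, 0 and 0 RPKM in naive KO libraries, and in Ctrl 9.25, 8.73 and 7.21 RPKM in activated Ctrl libraries, against 1.58, 1.7 and 3.65 RPKM in naive Ctrl libraries (difference 2.43, SE 0.41, adjusted p = 0.0398), the naive KO values being at or near 0. Tmem97, a sterol-regulated protein of the ER, had 66.5, 79.2 and 62.4 RPKM in activated KO libraries, against 6.03, 8.04 and 6.46 RPKM in naive KO libraries, and in Ctrl 43.4, 58.3 and 37.9 RPKM in activated Ctrl libraries, against 16.8, 15.3 and 13.6 RPKM in naive Ctrl libraries (difference 1.63, SE 0.264, adjusted p = 0.0398). Gbp2b, a guanylate-binding protein close in sequence to others of its family, averaged 28.6 against 1.39 RPKM in KO and 8.17 RPKM in activated Ctrl cells against 3.8 RPKM in naive Ctrl cells (difference 2.74, SE 0.502, adjusted p = 0.0472). Aurkb rose in both genotypes, and its difference of 1.34 (SE 0.243, adjusted p = 0.0472) came with naive levels of 2.81, 2.42 and 3.59 RPKM in KO and 6.07, 7.25 and 8.29 RPKM in Ctrl libraries. Odf1, and Cnih2 from outside the naming rule, were not called in the KO step and were highest in naive Ctrl libraries. Odf1 averaged 0.615 against 0.359 RPKM in KO and 0.208 RPKM in activated Ctrl cells against 6.23 RPKM in naive Ctrl cells (difference 2.83, SE 0.526, adjusted p = 0.0472). Odorant receptor genes had medians of 6.54, 4.26 and 6.96 RPKM in the naive Ctrl libraries, near the levels of Odf1 and Afp there. The part of this low-level signal in the differences of Odf1 and Afp was not tested.

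**Figure D5:**
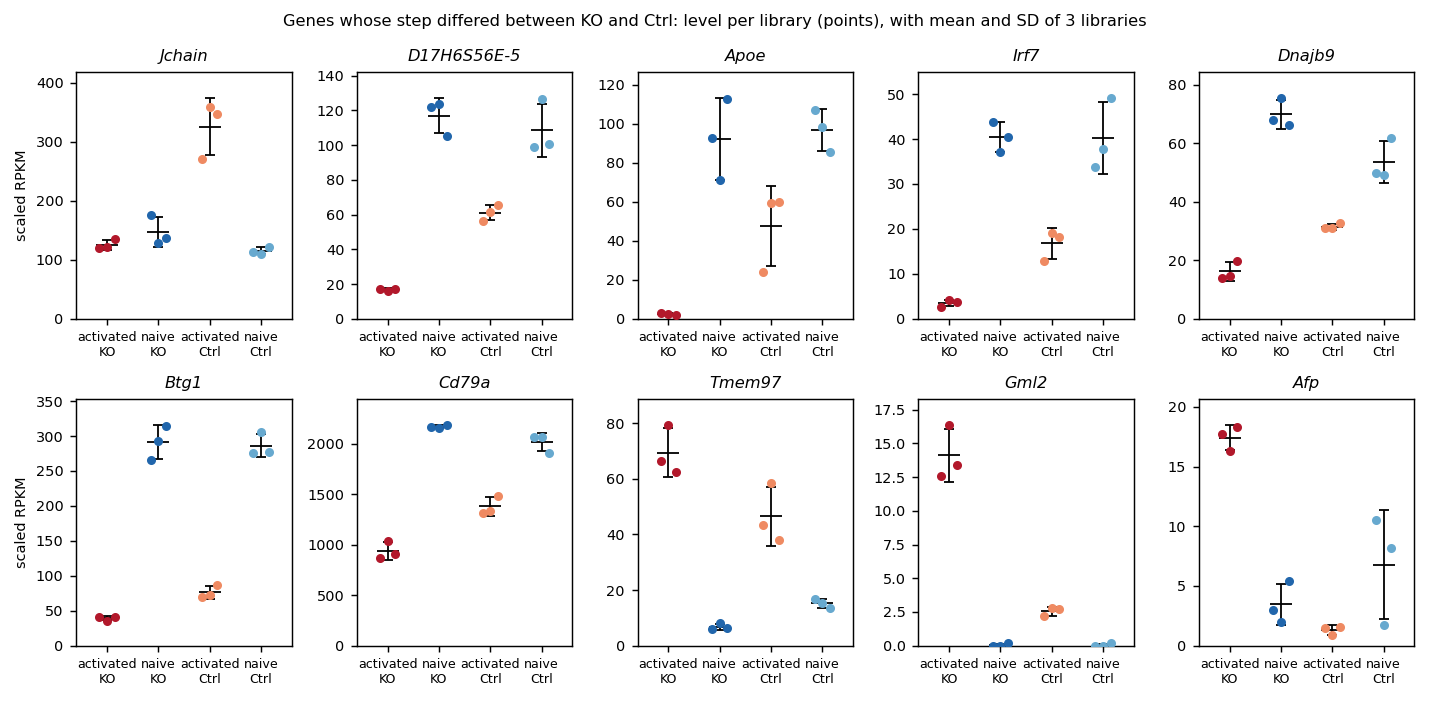
Scaled RPKM in each library of activated KO, naive KO, activated Ctrl and naive Ctrl cells for 10 genes whose step differed between the genotypes, with mean and SD (n = 3). Jchain is high in activated Ctrl cells only, at 271 to 359 RPKM, and Gml2 is highest in activated KO cells.

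An earlier analysis of these libraries had singled out genes that differ between activated KO and activated Ctrl cells, and a list of 10 of them is no independent evidence. Of these, 5 were called higher and 4 lower in the KO step, with 2 higher and 3 lower among the called differences. Akr1c13, an aldo-keto reductase with near-identical neighbours among which reads may be split, had 39.4, 36.3 and 41.3 RPKM in activated KO libraries, against 5.3, 8.22 and 12.5 RPKM in naive KO libraries, and in Ctrl 0.227, 0.487 and 0 RPKM in activated Ctrl libraries, against 0, 8.29 and 2.69 RPKM in naive Ctrl libraries. Its difference was 3.52 (SE 0.805, adjusted p = 0.0846), and naive values of the genotypes overlapped. The KO step of Akr1c13 (log2 change 2.11, SE 0.569, adjusted p = 0.00791) was not called with a pseudocount of 0.1 (adjusted p = 0.132). Ly6c2 had 93.3, 100.0 and 94.5 RPKM in activated KO libraries, against 69.3, 57.2 and 38.8 RPKM in naive KO libraries, and in Ctrl 17.3, 12.9 and 12.6 RPKM in activated Ctrl libraries, against 44.6, 25.8 and 19.7 RPKM in naive Ctrl libraries (difference 1.79, SE 0.365, adjusted p = 0.0595), the KO call being lost under quantile normalization and without activated KO replicate 3 or naive KO replicate 3 (adjusted p up to 0.0816).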

How the data were processed

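RNA-seq libraries of mouse spleen B cells were made with the SMART-seq v4 and NexteraXT kits, per the labels' protocols. The authors deposited RPKM values for 12960 genes; per the submitters' processing notes, STAR and mm10 were used, and no source used here names the counter or gene models. All columns were mapped to samples by name, and 0 value columns were left unused. Each library was scaled by its median ratio to the geometric mean, from 8012 genes that exceeded 1 RPKM throughout the series. Genes with a mean of at least 1 in 1 of the 4 groups were kept, which left out 257. Depth was estimated from the steps between low values with exon lengths for 96.3% of genes (tolerance 0.1 of a read) and is approximate.

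Activated and naive libraries of both genotypes (12) were fitted in limma 3.58.1 (R 4.3.3) with a mean for each of the 4 groups, by lmFit and two-sided eBayes with trend, on log2(scaled RPKM + 1), with Benjamini-Hochberg adjustment over all genes. The contrasts were the KO step, the Ctrl step and their difference. The 6 other libraries stayed out because naive libraries vary more, and a shared spread would be too small. Members and gene lists were chosen with earlier results of these data known, and lists were described by counts and medians without a test. Genes were named by rule: anchors of each list, up to 12 per direction with the largest KO step among called genes reaching 10 RPKM with groups apart, and up to 10 per direction with the smallest adjusted p of the difference among genes reaching 5 RPKM. Some items that the rule names are not reported here. Numbered symbols and receptor segments were left out. Other list members and markers with values were chosen after these were seen. An exact permutation test of 3 against 3 could not go below p = 0.1 and was not used. Gene positions are from GENCODE M21 on GRCm38; promoters from RefSeq. Alternatives were other fits, scalings, pseudocounts and filters, a replicate block and leaving out each library. Tables were made in Python 3.11.15 with pandas 2.3.3 and numpy 2.4.6, plots with matplotlib 3.10.9.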

Additional observations from a re-analysis of the deposited data

Results flagged for a closer look

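Genes named by rule whose step from naive to activated cells differed between KO and Ctrl are given here with the size of that difference (log2, KO step minus Ctrl step, limma adjusted p under 0.05). Steps were higher in KO for Afp (3.64), Odf1 (2.83), Gbp2b (2.74), Bag2 (2.43), Gml2 (2.08), Tmem97 (1.63) and Aurkb (1.34). They were lower in KO for Apoe (-3.62), Irf7 (-2.0), D17H6S56E-5 (-1.92), Jchain (-1.69), Kcnk5 (-1.54), Dnajb9 (-1.31), Cd72 (-1.16), Adgre5 (-1.03), Btg1 (-0.96), Cd79b (-0.68) and Cd79a (-0.66). The calls of Jchain and D17H6S56E-5 held under every alternative, and that of Apoe was lost only with library weights. Cd79b was not followed in this way. Each other call was lost without any 1 of several libraries, from 4 for Irf7 to 10 for Odf1. Their highest limma adjusted p over the alternatives ran from 0.138 (Irf7) to 0.308 (Cd79a). Afp and Kcnk5 were called in opposite directions in the genotypes, and Kcnk5 had 16.4, 15.7 and 12.2 RPKM in activated KO against 31.5, 26.9 and 33.6 RPKM in naive KO libraries, and 22.5, 20.5 and 22.4 RPKM in activated Ctrl libraries, against 16.2, 14.6 and 13.8 RPKM in naive Ctrl libraries. With 3 libraries in a group, libraries that stand apart within a group were not tested for.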

How the results depend on the processing

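Under the alternatives tried, genes called higher in the KO step numbered 1865 to 2462 and lower 2454 to 4063 when any 1 of the 12 libraries was left out; at least 2-fold changes numbered 1205 to 1386 and 1798 to 2748. Lower calls were 2186 with quantile normalization and 1898 among genes of at least 5 RPKM. Lower calls of at least 2-fold were 1197, 943 and, with a pseudocount of 5, 668, when 851 were higher. Calls shared with Ctrl were 3344 to 4977 on leaving out a library and 2869 among genes of at least 5 RPKM. The difference between genotypes depended most on the choices. Higher and lower steps numbered 172 and 162 with all 18 libraries, 1 and 2 with library weights, 5 and 10 unscaled, and 2 and 9 after quantile normalization. Higher steps were 4 and 17 with pseudocounts of 0.1 and 5 and 5 without a filter, lower ones 27 at 5 RPKM, and they were 0 to 169 and 3 to 81 on leaving out a library. The cause was not tested.

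Deviations of same-numbered KO libraries correlated at 0.023 and -0.138, and those of differently numbered KO libraries at -0.1945 to 0.1817. With so few pairs these values cannot show whether replicate numbers pair the samples. With replicate number as a block the KO step had 2033 higher and 2627 lower calls and the difference 1 and 4; of the step calls of genes named by rule, those of Isg15 (adjusted p = 0.058), Myd88 (0.0528), Psmb8 (0.0538) and Bcl2l1 (0.123) were lost. Directions turned in genes not called in the KO step, given as log2 changes with the range on leaving out each library: Slc2a1 (-0.0297 to 0.296), Odf1 (-0.019 to 0.621), Dnmt3b (-0.272 to 0.481), Rps6 (-0.103 to 0.0621, and -0.0576 with the block), Ern1 (-0.724 to 0.413, with 0.259 after quantile normalization, 0.0904 at pseudocount 0.1 and 0.11 with the block), Irf8 (-0.115 to 0.15, with -0.13 after quantile normalization and -0.0528 with the block), Fas (-0.603 to 0.285, with 0.0655 after quantile normalization and 0.283 with the block) and Bcl2 (-0.123 to 0.153, with -0.0308 after quantile normalization).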
